A study of Homo sapiens with 3 samples.

Results

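The genes described here are 10 receptor tyrosine kinases that are drug targets or candidate targets in gastric cancer: EGFR, ERBB2, ERBB3, MET, FGFR1, FGFR2, FGFR3, FGFR4, PDGFRA and PDGFRB. Their symbols were given as a list, and each matched 1 of the 58735 genes in the deposited table. RNA was sequenced from cells labelled HGC-27, an established human gastric cancer line, in 3 libraries: 1 carrying a control short hairpin RNA (shControl, labelled WT) and 2 carrying a hairpin against the deubiquitinase gene USP16 (shUSP16-1 and shUSP16-2). A short hairpin RNA lowers the mRNA of its target and leaves the gene in place. Whether shUSP16-1 and shUSP16-2 are different hairpins or repeats of one, clones or pools, and separate cultures or not, is not stated in the labels. A p-value here therefore sets a difference from 1 control library against a spread between libraries that may be technical repeats. For all 3 libraries the protocols name medium with 10% serum and also describe dexamethasone at 1 µM, isobutylmethylxanthine at 0.5 mM and insulin at 10 µg/ml, and whether these cells received the hormones is unclear.

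Receptor tyrosine kinases span the cell membrane, bind a growth factor outside the cell, pair up and phosphorylate tyrosines on each other's tails, where adaptor proteins dock and switch on the RAS-ERK and PI3K-AKT cascades. ERBB2 (HER2) has no known ligand of its own and works by pairing with other ERBB receptors. ERBB3 binds neuregulins but has a largely inactive kinase, so it signals through its partners. In gastric cancer ERBB2, FGFR2, MET and EGFR are known for gene amplification in subsets of tumours, and PDGFRA and PDGFRB are better known from fibroblasts and other stromal cells.

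Levels are FPKM, fragments per kilobase of gene length scaled to library size, and rest on 30131136 reads recovered for shControl, 29530581 for shUSP16-1 and 31187845 for shUSP16-2. Differences are on the log2(FPKM + 1) scale, which understates the change of low genes. Ratios to shControl are given with exact binomial 95% intervals of the reads, which cover counting error only. The authors' FPKM imply library totals that are 1.08, 1.01 and 0.994 times the sums of reads, so ratios are given with the authors' totals unless sums of reads are named. USP16 was at 6.28 FPKM in shControl, 4.29 in shUSP16-1 and 5.98 in shUSP16-2, with ratios to shControl of 0.683 (0.621 to 0.749) and 0.952 (0.875 to 1.04). The targeted gene was lower beyond counting error in shUSP16-1 and not in shUSP16-2 on this scaling. Scaling by sums of reads put both below 1, at 0.639 (0.582 to 0.702) and 0.876 (0.805 to 0.953). All directions given here depend on the labels, and these are called the libraries labelled shUSP16.

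Markers of the labelled tissue were low or absent. Of 10 epithelial markers 9 had a mean below 1 FPKM, and 10 of 10 gastric mucosa markers did too. The 9 included the keratin gene KRT8 (27, 12 and 9 reads in shControl, shUSP16-1 and shUSP16-2) and KRT19 (0 reads in all 3). CLDN4, also among the 9, had 165, 104 and 99 reads. Only the epithelial marker CLDN7 averaged above 1 FPKM, at 2.11, 2.90 and 1.75 FPKM. Of 8 mesenchymal markers, VIM was at 155, 159 and 180 FPKM and TWIST1 at 178, 144 and 130, while CDH2 had 10, 2 and 8 reads and FN1 averaged below 1 FPKM. The 8 fibroblast markers summed to 393, 416 and 568 FPKM. Endothelial and immune markers summed to below 1 FPKM in every library, with PECAM1, CDH5, PTPRC and CD3E at 0 reads. The identity of the line rests on its label and was not tested here.

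FGFR3 and FGFR4 were the most abundant of the 10 receptors, MET and ERBB2 followed, and EGFR, PDGFRB and FGFR1 lay below 1 FPKM in every library. Averaged over the 3 libraries the order was FGFR3 (21.9 FPKM), FGFR4 (15.5), MET (7.71), ERBB2 (6.85), PDGFRA (4.64), FGFR2 (2.46), ERBB3 (1.58), PDGFRB (0.632), EGFR (0.426) and FGFR1 (0.0972). Ranges over the libraries overlapped for the neighbours FGFR3 and FGFR4, for MET and ERBB2, and for PDGFRB and EGFR, and all other neighbours had separate ranges. Within each library FGFR3 was above FGFR4 and PDGFRB above EGFR, while MET and ERBB2 changed places in shUSP16-1. FGFR3 stood above 84.7% of the 11069 protein-coding genes that averaged 1 FPKM or more, and ERBB2 above 48.4% of them, so ERBB2 mRNA was near the middle of expressed genes in this line.

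**Figure D1:**
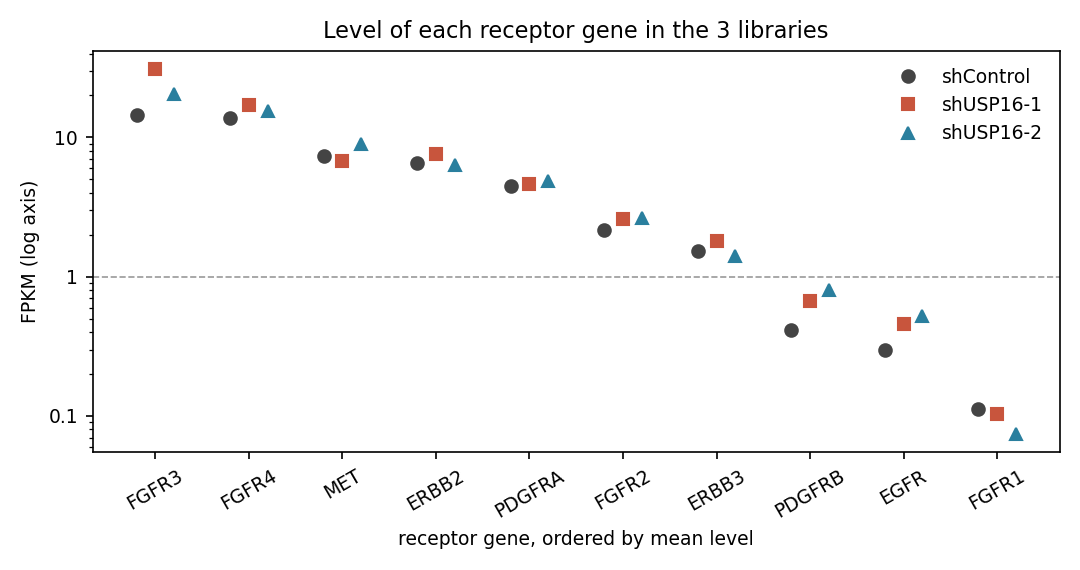
FPKM of the 10 receptor genes (log axis) in shControl (circles), shUSP16-1 (squares) and shUSP16-2 (triangles), 1 point per library; the dashed line marks 1 FPKM, the mean level needed for testing. FGFR3 ranges from 14.4 to 31.0 FPKM, while PDGFRB, EGFR and FGFR1 lie below the line in all 3 libraries.

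The 4 FGF receptors together made up 59.5% of the summed FPKM of the 10 genes in shControl, 69.8% in shUSP16-1 and 62.8% in shUSP16-2. Of that sum the 3 ERBB genes made up 16.5%, 13.6% and 13.4%. Among 58 receptor tyrosine kinase genes, ranked by level within each library, FGFR3 had rank 4 in shControl, rank 2 in shUSP16-1 and rank 3 in shUSP16-2, behind DDR2, a collagen receptor, in all of them. FGFR4 had rank 5 in every library. DDR2 was at 32.6, 32.8 and 35.0 FPKM, and PTK7, a pseudokinase of Wnt signalling, at 26.6, 30.3 and 27.9.

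The stretches just upstream of the start site are shown for the 2 most abundant receptors and for 2 of the least abundant. They are the 250 bases before the RefSeq start nearest to the deposited gene start, 5′ to 3′ on the gene's strand (GRCh38.p14): FGFR3 chr4:1793043-1793292 (plus), FGFR4 chr5:177086665-177086914 (plus), EGFR chr7:55018767-55019016 (plus) and PDGFRB chr5:150155846-150156095 (minus). Capitals mark the GC box GGGCGG on either strand, the core letters bound by SP1-family factors.
FGFR3: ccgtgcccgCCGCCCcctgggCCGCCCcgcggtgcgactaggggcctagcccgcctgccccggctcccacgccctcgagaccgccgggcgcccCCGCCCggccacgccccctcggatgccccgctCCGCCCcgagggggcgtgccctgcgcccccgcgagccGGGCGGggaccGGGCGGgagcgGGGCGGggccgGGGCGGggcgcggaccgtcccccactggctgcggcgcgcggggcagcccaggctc
FGFR4: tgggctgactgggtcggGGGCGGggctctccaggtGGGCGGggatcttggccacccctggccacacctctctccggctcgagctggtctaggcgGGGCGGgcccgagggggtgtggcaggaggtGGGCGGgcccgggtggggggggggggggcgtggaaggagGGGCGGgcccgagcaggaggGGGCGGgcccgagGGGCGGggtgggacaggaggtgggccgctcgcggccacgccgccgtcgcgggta
EGFR: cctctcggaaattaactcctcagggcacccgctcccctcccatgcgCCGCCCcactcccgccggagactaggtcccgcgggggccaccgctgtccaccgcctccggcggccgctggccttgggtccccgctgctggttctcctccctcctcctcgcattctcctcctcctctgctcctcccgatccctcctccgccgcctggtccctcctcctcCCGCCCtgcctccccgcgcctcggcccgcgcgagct
PDGFRB: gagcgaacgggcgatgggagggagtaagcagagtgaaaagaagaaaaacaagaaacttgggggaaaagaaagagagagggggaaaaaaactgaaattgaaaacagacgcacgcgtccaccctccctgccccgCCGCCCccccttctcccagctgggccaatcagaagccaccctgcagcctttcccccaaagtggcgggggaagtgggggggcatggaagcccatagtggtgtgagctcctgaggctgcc
FGFR3 held 8 GC boxes and FGFR4 held 7, EGFR held 2 and PDGFRB held 1, where 42.6% of all 35116 windows of this length held at least 1. The FGFR3 window had 40 CpG dinucleotides, more than 97.8% of all windows. FGFR4 had 24, EGFR had 25 and PDGFRB had 9, against a median of 11. FGFR2, a less abundant receptor than FGFR3 and FGFR4, had 42. CpG counts therefore did not follow the order of abundance. Among the 8 receptors matched in the promoter table, the GC box counts of the others were 3 in FGFR2, 2 in MET and 0 in ERBB2 and PDGFRA; ERBB3 and FGFR1 were not matched. The AP-1 letters TGANTCA, searched on both strands like the others, lay in the windows of ERBB2 and PDGFRA and in 6.57% of all windows. TATAAA and ACGTG lay in none of the 8, against 10.7% and 18.5% of all windows. A match describes letters and does not show binding.

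Across all 10 receptors, 6 were higher than shControl in both libraries labelled shUSP16 (FGFR3, FGFR4, FGFR2, PDGFRA, PDGFRB and EGFR), 1 was lower in both (FGFR1), and MET, ERBB2 and ERBB3 went opposite ways in the 2 libraries. Among the 13852 genes that averaged 1 FPKM or more, 44.9% were higher in both and 32.4% lower in both. Of the 7 receptors at that level, 4 were higher in both and 0 lower in both, so the count higher in both was not far from the background. With columns rescaled to equal sums of reads, 31.3% of those genes were higher in both and 45.4% lower in both. That scaling moved the median difference of all tested genes from 0.041 to -0.037 in shUSP16-1 and from 0.043 to -0.057 in shUSP16-2. It gave 5 of the 10 receptors higher in both and 2 lower in both, and 3 and 1 among the 7. Scaling by median ratio gave 6 of the 10 receptors higher in both and 1 lower in both. Of the tested genes it put 37.9% higher in both and 38.5% lower in both. Of the 10, 7 passed the filter of 1 FPKM and entered the test.

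limma with a variance trend, adjusted over all 13852 genes, called 0 receptors (background 0%). Among the members tested, only FGFR3 had an unadjusted p under 0.05 in that limma fit, a level that 14.5% of all tested genes reached. The fit has 1 residual degree of freedom per gene, and its spread comes from the 2 libraries labelled shUSP16 alone. limma combines that spread with a variance trend over all tested genes, which counts for 4.05 degrees of freedom. By size on the log2(FPKM + 1) scale, 0 receptors differed by 2-fold or more in both libraries (background 0.570%) and 0 by 1.5-fold (background 2.97%). That scale compresses low genes. As plain ratios of FPKM, PDGFRB and EGFR, both below the testing level, were past 1.5-fold in both libraries. Among tested genes 6.30% were, but these all averaged 1 FPKM or more. The share among genes as low as PDGFRB and EGFR was not computed, so the 6.30% is not their background.

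**Figure D2:**
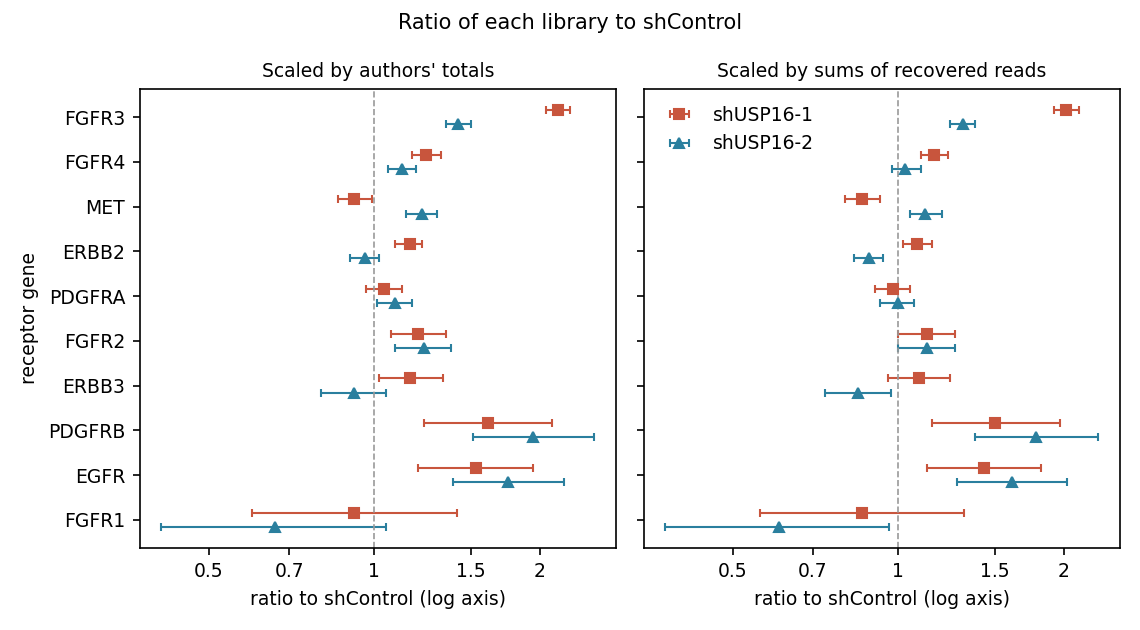
Ratio of each receptor gene's level to shControl (log axis) in shUSP16-1 (squares) and shUSP16-2 (triangles), scaled by the authors' totals on the left and by sums of recovered reads on the right; bars are exact binomial 95% intervals of the reads. FGFR3 is at 2.16 and 1.42 on the left and at 2.02 and 1.31 on the right, and the squares and triangles of MET, ERBB2 and ERBB3 lie on opposite sides of 1 in both panels.

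FGFR3, a receptor for FGFs that restrains bone growth and is mutated in bladder cancer (ENSG00000068078, chromosome 4, 1793293 to 1808872, plus strand, GRCh38), showed the largest difference of the 10 on the log2(FPKM + 1) scale. Its level was 14.4 FPKM (2265 reads) in shControl, 31.0 FPKM (4494 reads) in shUSP16-1 and 20.4 FPKM (3073 reads) in shUSP16-2. Both libraries labelled shUSP16 were above the control, and they differed from each other by a ratio of 1.52 (1.45 to 1.59). The mean of the 2 was 25.7 ± 7.48 FPKM (SD, n = 2). Against shControl the ratio was 2.16 (2.05 to 2.27) in shUSP16-1 and 1.42 (1.35 to 1.5) in shUSP16-2, and with sums of reads 2.02 (1.92 to 2.13) and 1.31 (1.24 to 1.38). The log2 difference of 0.77 (SE 0.25) did not pass limma (adjusted p = 0.311).

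A fit on recovered reads, limma voom, called FGFR3 higher with the authors' totals (log2 difference 0.81, adjusted p = 0.0239) and with sums of reads (0.70, adjusted p = 0.0199), while calling 1.47% and 1.00% of all tested genes higher (2.51% and 4.02% in either direction). Over the 11 fits FGFR3 was called in 2, with adjusted p values from 0.0199 to 1.00. limma restricted to protein-coding genes, where 0.434% of genes were called, gave an adjusted p of 0.0979. Without a filter limma called 2.87% of genes, and with a mean of at least 5 FPKM 0.170%, and FGFR3 in neither. FGFR3 was highest in shUSP16-1, where USP16 was lowest, but 3 libraries do not allow a test of that relation.

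FGFR4, a receptor that responds to FGF19 in liver (ENSG00000160867, chromosome 5, 177086886 to 177098144, plus strand), measured 13.8 FPKM in shControl, 17.1 in shUSP16-1 and 15.5 in shUSP16-2. Of these the control was lowest of the 3, and the log2 difference of 0.23 (SE 0.13) did not pass limma (adjusted p = 0.454). Its ratio in shUSP16-2 was 1.12 (1.06 to 1.19) with the authors' totals but 1.03 (0.975 to 1.10) with sums of reads. FGFR2, whose splice forms divide epithelial from mesenchymal cells (ENSG00000066468, chromosome 10, 121478334 to 121598458, minus strand), was at 2.15, 2.59 and 2.64 FPKM, in the same order of libraries. The libraries labelled shUSP16 lay close together, at 2.61 ± 0.0365 FPKM (SD, n = 2), above the control, with a log2 difference of 0.20 (SE 0.16, limma adjusted p = 0.580).

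FGFR1 (ENSG00000077782, chromosome 8, 38400215 to 38468834, minus strand), the FGF receptor typical of mesenchymal cells, was close to absent. Its reads numbered 51 for shControl, 43 for shUSP16-1 and 32 for shUSP16-2, or 0.113, 0.104 and 0.0746 FPKM. Its ratios were 0.919 (0.598 to 1.41) and 0.659 (0.410 to 1.05), so no difference from the control was detectable at this depth. With sums of reads the interval in shUSP16-2 was 0.377 to 0.962 and excluded 1. FGFR1 overlaps LETM2 on the opposite strand, which had 250, 236 and 306 reads. Its FPKM was below that of all other members in every library.

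ERBB2 (ENSG00000141736, chromosome 17, 39687914 to 39730426, plus strand) measured 6.60 FPKM in shControl, 7.62 in shUSP16-1 and 6.34 in shUSP16-2. Since the control lay between them, the groups overlapped, and the log2 difference was 0.07 (SE 0.15, limma adjusted p = 0.859). ERBB3 (ENSG00000065361, chromosome 12, 56076799 to 56103505, plus strand) showed the same order, at 1.54, 1.79 and 1.41 FPKM, with a log2 difference of 0.03 (SE 0.21, limma adjusted p = 0.955). The ratio of shUSP16-1 to shUSP16-2 was 1.20 (1.13 to 1.28) for ERBB2 and 1.27 (1.11 to 1.45) for ERBB3. Both genes therefore differed between libraries of one label by more than counting error.

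EGFR (ENSG00000146648, chromosome 7, 55019021 to 55211628, plus strand), the receptor for EGF and TGFA, was low, with 122, 171 and 203 reads in shControl, shUSP16-1 and shUSP16-2, or 0.299, 0.457 and 0.523 FPKM. Both libraries labelled shUSP16 were above the control, with ratios of 1.53 (1.20 to 1.94) and 1.75 (1.39 to 2.21). Scaled by sums of reads instead, they were 1.43 (1.13 to 1.82) and 1.61 (1.28 to 2.03). EGFR did not reach the level needed for the test, and in limma without a filter its adjusted p was 0.945. The intervals exclude 1 as far as counting goes, but do not include variation between cultures.

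MET, the receptor for hepatocyte growth factor (ENSG00000105976, chromosome 7, 116672390 to 116798386, plus strand), measured 7.37 FPKM in shControl, 6.78 in shUSP16-1 and 8.98 in shUSP16-2. It stood below the control in one library and above it in the other, with ratios of 0.920 (0.857 to 0.988) and 1.22 (1.14 to 1.30). The spread between the 2 libraries labelled shUSP16 was larger than their mean difference from the control (log2 difference 0.07, SE 0.18, limma adjusted p = 0.870).

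PDGFRA (ENSG00000134853, chromosome 4, 54229097 to 54298247, plus strand) was nearly level, at 4.45 FPKM in shControl, 4.64 in shUSP16-1 and 4.83 in shUSP16-2, with a log2 difference of 0.07 (SE 0.13, limma adjusted p = 0.816). With sums of reads its ratios were 0.977 (0.906 to 1.05) and 0.998 (0.927 to 1.07). PDGFRB (ENSG00000113721, chromosome 5, 150113837 to 150155872, minus strand) was about an order of magnitude lower in the control and higher in both other libraries, with 97, 143 and 179 reads, or 0.417, 0.671 and 0.809 FPKM. Its ratios to shControl were 1.61 (1.23 to 2.10) and 1.94 (1.51 to 2.51), and it was below the level needed for the test; limma without a filter gave an adjusted p of 0.847. The summed fibroblast markers were in the same order, at 393, 416 and 568 FPKM. Of the 8, 4 were higher in both libraries and 1 lower in both, beside 44.9% and 32.4% of all tested genes. COL3A1, LUM and DCN were lower in shUSP16-1 only. The summed pericyte and smooth muscle markers went the other way, at 3.15, 2.63 and 2.30 FPKM. Most of that sum was CSPG4, at 2.02, 1.82 and 1.42 FPKM, and only 1 of the 5 markers, CSPG4, reached the testing level. RGS5 (42, 30 and 41 reads) and DES (21, 4 and 14 reads) did not follow the order of the sum. The libraries are labelled as 1 cell line, and whether either cell type was present was not tested. Any relation of these markers to the PDGFRB values was not tested. In bulk RNA, more cells of a type and more RNA per cell cannot be told apart.

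**Figure D3:**
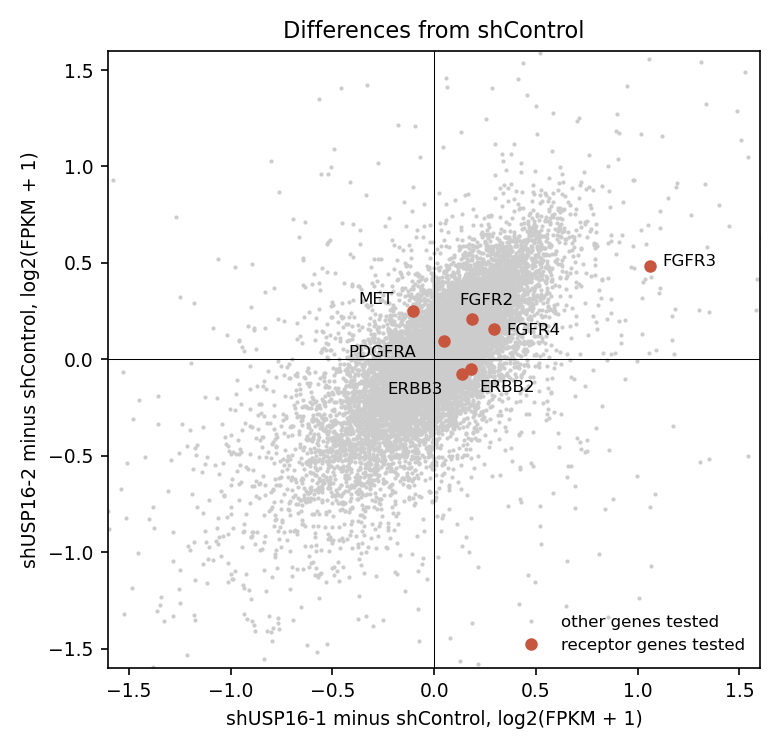
Difference from shControl on the log2(FPKM + 1) scale in shUSP16-1 (horizontal) and shUSP16-2 (vertical) for the genes tested (grey) and the 7 receptors tested (red); 93 genes lie outside the axes. FGFR3, at 1.06 and 0.48, lies at the edge of the cloud, and the other 6 lie within it.

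Ligands of the ERBB receptors were few and low. Of 11 EGF family ligand genes 3 were tested, HBEGF, TGFA and NRG2, and all 3 were lower in both libraries, with 0 called by limma. Over all tested genes 32.4% were lower in both, and 45.4% with equal sums of reads. NRG2, a neuregulin gene, was at 1.81 FPKM in shControl, 0.726 in shUSP16-1 and 0.964 in shUSP16-2, and TGFA was at 1.6, 1.25 and 0.916. limma voom with sums of reads called NRG2 lower (log2 difference -1.22, adjusted p = 0.0236), and its adjusted p ran up to 0.672 over the 10 fits. EREG, EPGN and NRG3 had 0 reads in every library. HGF, the ligand of MET, had 112, 90 and 137 reads (0.350, 0.307 and 0.450 FPKM), and 0 of the 7 genes of HGF and its activation reached 1 FPKM on average.

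Among 18 FGF ligand genes only FGF21 and FGF9 were tested, and limma called neither. FGF21, a metabolic hormone of stressed cells, was at 10.8 FPKM in shControl, 15.2 in shUSP16-1 and 10.5 in shUSP16-2, so it was high in 1 library only. FGF9 was at 4.51, 3.78 and 3.85 FPKM. FGF19, below the testing level, had 78, 25 and 29 reads, with ratios of 0.349 (0.213 to 0.554) and 0.390 (0.246 to 0.605). The klotho co-receptor KLB, on which FGF19 and FGF21 depend for high-affinity binding, and the related gene KL were at 0.0707 FPKM or less. Of the 4 tested co-receptor and heparan sulfate proteoglycan genes 3 were higher in both libraries, beside 44.9% of all tested genes. SDC1 (syndecan 1) led them at 13.7, 18.7 and 20.3 FPKM (log2 difference 0.48, SE 0.13, limma adjusted p = 0.280).

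All 4 PDGF ligand genes were tested, and PDGFB, PDGFC and PDGFD were higher in both libraries, as were 44.9% of all tested genes. PDGFD, which binds PDGFRB, was at 1.97 FPKM in shControl, 5.79 in shUSP16-1 and 4.58 in shUSP16-2. Both were well above the control, with ratios of 2.94 (2.56 to 3.40) and 2.33 (2.02 to 2.70). PDGFB was at 1.23, 2.20 and 2.18 FPKM. limma over all genes called neither (adjusted p = 0.272 for PDGFD and 0.318 for PDGFB). PDGFD was called higher by limma restricted to protein-coding genes (log2 difference 1.05, adjusted p = 0.0172) and by voom with both kinds of total, so in 3 of 10 fits, with adjusted p values from 0.00407 to 0.604.

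**Figure D4:**
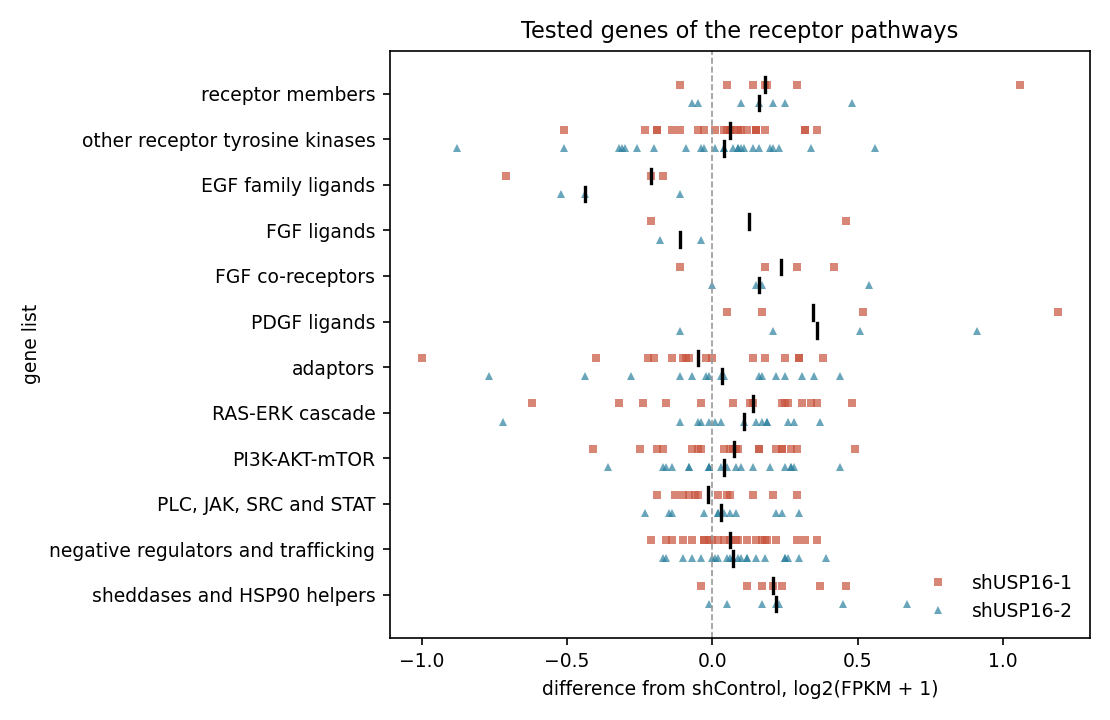
Difference from shControl on the log2(FPKM + 1) scale for the tested genes of the receptors and of 11 pathway lists, in shUSP16-1 (squares) and shUSP16-2 (triangles); black ticks are medians per library. PDGFD at 1.19 and 0.91 is the highest ligand, and SHC2 is the lowest adaptor in both libraries.

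Over all pathway lists, other receptors and ligands included, limma called 0 of the 131 tested genes. An unadjusted limma p under 0.05 was seen for 16, a level that 14.5% of all tested genes reached. Of the 131, 66 were higher in both libraries and 32 lower in both, beside 44.9% and 32.4% of all tested genes. The median difference was 0.06 in each library, against 0.04 over all tested genes. With equal sums of reads the split turned to 41 higher and 55 lower, as it did over all genes (31.3% and 45.4%). Downstream of the receptors, 6 of 16 tested adaptors were higher in both and 6 lower in both, beside the same 44.9% and 32.4%. GRB2, which links receptors to the RAS activator SOS, was at 20.5 FPKM in shControl, 25.6 in shUSP16-1 and 26.5 in shUSP16-2. SHC2, an adaptor best known from neurons, went the other way, at 10.7, 4.86 and 5.88 FPKM. Its limma adjusted p was 0.272 over all genes. SHC2 was called lower in 3 of 11 fits, limma restricted to protein-coding genes and voom with both kinds of total, with adjusted p values from 0.000195 to 0.597.

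In the RAS-ERK cascade 10 of 15 tested genes were higher in both libraries and 5 lower in both, beside 44.9% and 32.4% of all tested genes, and with equal sums of reads 7 were higher and 5 lower. HRAS was at 18.6, 26.4 and 22.9 FPKM, and NRAS at 17.8, 22.8 and 23.4. KSR1, a scaffold that holds RAF, MEK and ERK together, was lower, at 2.89 FPKM in shControl, 1.53 in shUSP16-1 and 1.37 in shUSP16-2. limma did not call it (adjusted p = 0.290), and voom called it with both kinds of total (adjusted p from 0.000403 to 0.443 over 10 fits). Of 20 tested PI3K-AKT-mTOR genes, 9 were higher in both and 5 lower in both. With equal sums of reads the counts were 5 and 6, and over all tested genes that scaling gave 31.3% and 45.4%. MTOR, the kinase of both mTOR complexes, was at 6.40, 9.42 and 9.01 FPKM (limma adjusted p = 0.281; called in 1 of 11 fits, voom with the authors' totals, adjusted p = 0.0422, and adjusted p up to 0.394).

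The other 48 receptor tyrosine kinases showed no call in limma either. Of the 25 tested, 12 were higher in both libraries and 5 lower in both, beside 44.9% and 32.4% of all tested genes. With equal sums of reads the counts were 5 and 12, beside 31.3% and 45.4%. Median differences with the authors' scaling were 0.06 and 0.04, against 0.18 and 0.16 for the 7 tested members described here. A median of 7 genes is unsteady: the 0.18 is the value of ERBB2, which was at -0.05 in shUSP16-2. The gap between the medians was not tested. EPHA3, an ephrin receptor gene, was at 4.89, 6.34 and 7.69 FPKM (log2 difference 0.44, limma adjusted p = 0.321). LTK, a kinase related to ALK, was at 6.50, 5.40 and 3.06 FPKM. LTK was called lower in 1 of 10 fits, voom with sums of reads (adjusted p = 0.0485, and adjusted p up to 1.00).

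Genes next to the receptors on the chromosome were read from the deposited coordinates. LETM1, which lies 2606 bases beyond FGFR3 and encodes a mitochondrial ion exchanger, was at 11.2 FPKM in shControl, 16.8 in shUSP16-1 and 15.1 in shUSP16-2, higher in both like FGFR3 (limma adjusted p = 0.291). voom called LETM1 higher with the authors' totals (adjusted p = 0.0496) and not with sums of reads (adjusted p = 0.0900). TACC3, the neighbour on the other side at a gap of 48116 bases, was level, at 30.2, 30.3 and 32.6 FPKM. ERBB2 overlaps PGAP3 and MIEN1 on the opposite strand, and no source used here gives the strand setting of the counting, so reads in the overlaps cannot be told apart. These neighbours were at 2.31, 2.96 and 2.08 FPKM and at 8.50, 7.42 and 8.04 FPKM.

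The genes nearest to FGFR3 in their pair of differences from shControl, by Euclidean distance over 3 libraries, were SMN1 (0.073 on the log2 scale), ZNF385A (0.089) and RANBP10 (0.093). ZNF385A was at 73.1, 150 and 96.8 FPKM. SMN1 shares reads with its near-identical copy SMN2, so its own value is uncertain. Nearest to FGFR4 were TCF3, ISOC2 and ZNF45, and nearest to MET were MGME1, SLC30A7 and CALU. With 3 libraries such likeness is a description only.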

How the data were processed

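RNA-seq values of 3 HGC-27 libraries, 1 shControl and 2 shUSP16 by their titles, were deposited by the authors as FPKM for 58735 genes. The sources used here name no aligner, counting tool, strand setting or RNA selection. The submitters' processing notes name the mouse builds GRCm38 and mm10, but the coordinates of all 58735 genes equal human GENCODE release 29 on GRCh38. The deposited gene length equalled the summed exon length for all 10 receptors. FPKM times length was a whole multiple of 1 step per library for 100% of values above 0 (tolerance 0.01 reads), so whole reads were recovered. Chi-square per degree of freedom between the libraries labelled shUSP16 was 13.1 over 18422 genes, more than sampling noise, and they were counted as 2 libraries.

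limma 3.58.1 (R 4.3.3) was fitted with a variance trend to log2(FPKM + 1) of the 13852 genes averaging 1 FPKM or more, with Benjamini-Hochberg adjustment over all of them and a threshold of 0.05; the variance prior had 4.05 degrees of freedom, and the single control library is taken to vary as much as the others. With 3 libraries an exact permutation test cannot go below a p of 0.333. limma and voom were also run on simulated data with a fixed spread and set changes larger than the receptors' differences, to check that signs were recovered. That check does not measure their power for these data. Alternatives were a pseudocount of 0.1, no filter or 5 FPKM, other scalings, protein-coding genes only, other variance priors, voom on recovered reads and leaving out each shUSP16 library. The receptors and lists were chosen with earlier results of these data known. From each list up to 5 tested genes with the largest difference shared by both libraries, or with the highest mean, could be named, plus USP16, the nearest protein-coding neighbours and the 3 most similar genes of the 3 most abundant receptors. Genes below the testing level and those at 0 reads were named after their values were seen. Promoter sequences are from RefSeq (GRCh38.p14). Other steps used Python 3.11.15 with pandas 2.3.3, numpy 2.4.6 and scipy 1.17.1, and plots were drawn in matplotlib 3.10.9.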

Additional observations from a re-analysis of the deposited data

How the results depend on the processing

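limma called 0 receptors in the fits on log2 FPKM values and 1 (FGFR3) with voom, for the authors' totals (1) and for sums of reads (1). Of the genes in the pathway lists it called 0 in the fit over all genes, 2 (PDGFD and SHC2) among protein-coding genes only, 5 with voom and the authors' totals (3.82% of those tested, against 2.51% of all genes) and 6 with voom and sums of reads (4.58% against 4.02%). Without a filter it called 4, FGF5, FLT1, KL and KSR2, all below 0.04 FPKM in every library. That fit called 1688 of 58735 genes, and 3 of the 4 had 0 reads in both libraries labelled shUSP16. With a mean of at least 5 FPKM, 13 of 7639 genes were called and 0 of them were receptors. The count of receptors lower in both libraries was 1, 2 with equal sums of reads, and 2 to 3 when 1 library was left out; the count higher in both was 5 to 8.

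The sign of 4 small differences depended on the scaling or on 1 library. With equal sums of reads the log2 differences were -0.021 for MET, -0.027 for ERBB2, -0.015 for PDGFRA and -0.034 for ERBB3, and with voom and sums of reads -0.023, -0.033, -0.018 and -0.063. By median ratio ERBB3 was at -0.001. Leaving out either library labelled shUSP16 gave -0.106 to 0.253 for MET, -0.050 to 0.182 for ERBB2 and -0.074 to 0.137 for ERBB3. FGFR3 was positive in every setting, from 0.482 with shUSP16-2 alone to 1.061 with shUSP16-1 alone. With 1 library left out no residual degree of freedom remains, so those are values with no test. No paired analysis was possible with 1 control library against 2 libraries labelled shUSP16. Depth limits FGFR1, EGFR and PDGFRB, which had 32 to 203 reads per library.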

Other observations

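HSP90 chaperones, on which ERBB2 and many other kinases depend for folding, were abundant and higher in both libraries labelled shUSP16. Of all tested genes 44.9% were higher in both, and 31.3% with equal sums of reads. HSP90AA1 was at 228 FPKM in shControl, 314 in shUSP16-1 and 363 in shUSP16-2, and HSP90AB1 at 671, 867 and 914. Neither passed limma over all genes (adjusted p = 0.280 for each). HSP90AA1 was called in 2 of 11 fits, both of them voom, with adjusted p values from 0.0194 to 0.734. Those voom fits called 2.51% of all tested genes with the authors' totals and 4.02% with sums of reads. Both HSP90 genes have processed copies that can share reads. CDC37, the co-chaperone that brings kinases to HSP90, was at 104, 114 and 108 FPKM. ADAM17, which sheds EGF family ligands, was at 2.85, 3.55 and 3.51 FPKM (limma adjusted p = 0.470). Of 23 tested negative regulators and trafficking genes, 12 were higher in both libraries and 3 lower in both. Over all tested genes the shares were 44.9% and 32.4%. With equal sums of reads the counts were 7 and 10, beside 31.3% and 45.4% of all tested genes. limma called 0 of the 23, and 1 had an unadjusted p under 0.05, a level that 14.5% of all tested genes reached. PTPN1, a phosphatase that acts on EGFR and other receptors, was at 11.8, 15.5 and 15.8 FPKM, and RNF41, a ubiquitin ligase for ERBB3, at 15.3, 18.0 and 18.4.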
